A study of Homo sapiens with 58 samples.

Results

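Breast cancers of luminal type are usually driven by the estrogen receptor (ER), but a smaller group keeps a luminal appearance without it. The comparison set 3 ER-negative cell lines of luminal type, MFM223, CAL148 and MDAMB453, against 5 ER-positive luminal lines without HER2 amplification, T47D, CAMA1, MDAMB175VII, ZR751 and KPL1, to ask what luminal identity looks like without ER. These are 8 of the 58 human breast lines of the series. They were chosen by name and known subtype, since the labels give no subtype and no genotype. Every line is an established tumour line that was grown as its supplier advised, received no treatment and was measured on 1 array, so n is always the number of lines, and the spread is that between lines rather than between replicate cultures. As limits of the models, KPL1 is reported to be a derivative of MCF-7, MDAMB175VII carries a neuregulin fusion, and MDAMB453 is listed with extra HER2 copies in several collections.

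ER is a nuclear receptor that binds DNA when it holds estrogen and switches on genes for growth and secretion, among them PGR, GREB1 and CCND1. It reaches its sites together with FOXA1, a pioneer factor that opens chromatin, and GATA3, a factor of the luminal lineage. Luminal tumours without ER often resemble apocrine glands, with secreted proteins such as PIP and AZGP1.

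Values are log2 intensities, so 1 unit is a doubling, and a difference is the mean of the 3 ER-negative lines minus the mean of the 5 ER-positive lines. The 529 probe sets for viruses, taken as a measure of background, had a 95th percentile of 5.66, and the array medians lay between 5.40 and 5.53. How widely an array's values scatter around the medians of the series, taken as the interquartile range of the deviations and used as a sign of array quality, was 0.55 to 0.62 in the ER-negative lines and 0.47 to 0.54 in the ER-positive lines, so this technical measure moved with the sides without overlap. Its part in the differences was not tested separately, and the closing section gives the fit with it as a term.

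The levels of ESR1, the gene of ER, largely bore out the names of the sides, and since the sides were chosen by ER status, no test of ESR1 is used. ESR1 stood at 12.73 in T47D, 12.24 in CAMA1, 11.73 in MDAMB175VII, 12.69 in ZR751 and 12.45 in KPL1. It stood at 4.51 in CAL148 and 4.32 in MDAMB453, under the background value, but at 9.22 in MFM223. MFM223 therefore held an ESR1 signal between the sides and above the median of 6.13 over the 50 other lines. PGR, the progesterone receptor and a classical ER target, was 2.46 to 3.01 in the ER-negative lines. Among the ER-positive lines it was 11.55 in T47D, 11.03 in ZR751 and 9.84 in CAMA1, but 2.71 in MDAMB175VII and 2.74 in KPL1, which lay among the ER-negative lines. ERBB2, the gene of HER2, was highest of the 8 in MDAMB453 at 13.26, against 10.56 in MFM223, 11.88 in CAL148 and 10.77 to 12.40 in the ER-positive lines, and MDAMB453 ranked 13 of the 58 lines.

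The arrays sorted by side only in part. Over the 12340 genes tested, with each gene centred on its median over the 58 lines, Pearson r was 0.26 to 0.29 for the 3 pairs of ER-negative lines and 0.28 to 0.50 for the 10 pairs of ER-positive lines. For the 15 pairs with 1 line of each side it was 0.19 to 0.64. Among the 57 other lines of the series, the nearest to each of MFM223 (r = 0.36), CAL148 (0.64) and MDAMB453 (0.42) was CAMA1, an ER-positive line. The ER-positive lines other than CAMA1 had each other as nearest, ZR751 for T47D (0.42), MDAMB175VII (0.50) and KPL1 (0.38), and MDAMB175VII for ZR751. These are descriptions across genes, which are not independent.

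The pair of CAL148 and CAMA1 stood apart. Its r of 0.64 ranked 16 of the 1653 pairs in the series, where the median was 0.03, and lay among those of pairs that share a name or an origin: 0.83 for AU565 and SKBR3, 0.76 for OCUBF and OCUBM, 0.63 for EFM192A and EFM192C and 0.47 for VP229 and VP267. The identity of the CAL148 and CAMA1 arrays was not tested. There were 4 genes that lay at least 1 unit above all 56 other lines in both CAL148 and CAMA1. These were NKX2-1, a homeobox factor of lung and thyroid (13.11 and 12.40), SYNGR4 (11.03 and 10.00), RERGL (10.93 and 10.14) and the noncoding LINC00240 (8.0 and 7.77). Between CAL148 and CAMA1, 246 genes were at least 3 units apart, a count that is not given for the other pairs. Among them was RB1, the retinoblastoma gene, at 2.86 in CAL148 and 10.48 in CAMA1. Without both lines 11997 genes were tested, and 912 (7.60%) were separated above and 1046 (8.72%) below, since 2 and 4 lines overlap less often. Counts without them are read against those shares.

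**Figure D1:**
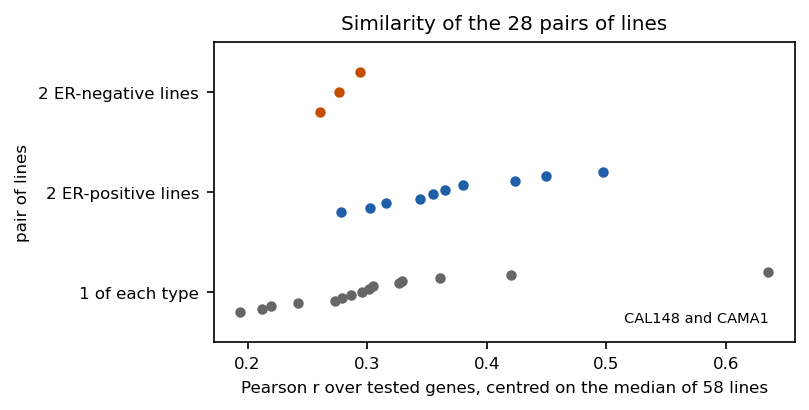
Pearson r for each pair of the 8 lines, over the 12340 tested genes centred on the median of the 58 lines, by whether the pair holds 2 ER-negative lines (3 pairs), 2 ER-positive lines (10 pairs) or 1 of each (15 pairs). Each point is 1 pair, and the pair of CAL148 and CAMA1 lies at 0.64, right of all others.

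Across all genes, the differences between the sides were small against the spread between lines. With limma, 0 of 12340 genes (0%) were called higher in the ER-negative lines and 0 (0%) higher in the ER-positive lines at a Benjamini-Hochberg adjusted p under 0.05, while 720 genes (5.83%) had an unadjusted p under 0.05. The smallest adjusted p was 0.072, for CACNG4 and EFEMP1. Because no gene passed, genes were also counted by whether the lines of the sides overlapped, a count chosen after this was seen. Every ER-negative line lay above every ER-positive line in 212 genes (1.72%) and below in 270 genes (2.19%). With means at least 1 unit apart these were 67 genes (0.543%) above and 130 genes (1.05%) below. Such genes are called separated here, which is a description and not a test. With further quantile normalization 256 genes were separated above and 227 below, so the balance of the directions changed with the processing.

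Genes that estrogen is known to induce stood lower in the ER-negative lines almost as a group. Of 36 listed genes 35 were measured and 34 tested. The mean was lower in the ER-negative lines for 33 of the 34, by at least 1 unit for 23, with a median difference of -1.85, against 6345 of 12340 lower and a median of -0.01 over all genes tested. PGR, a gene of the label check, is counted among the 33 and the 23, so for PGR this is no independent result. Called were 0 in either direction, and 6 of the 34 (17.6%) were separated below, against the 2.19% of all genes. The median ran from -2.02 to -1.28 over the alternatives, the last without CAL148. Without CAL148 and CAMA1, 10 of 33 (30.3%, against 8.72% of all genes) were separated below and 0 above. MFM223 lay below all ER-positive lines in 18 of the 34 genes, CAL148 in 19 and MDAMB453 in 18. Over all tested genes these shares were 23.9%, 18.2% and 19.1%, so MFM223, despite its ESR1 signal, had as many low targets as the lines without one.

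Of the separated targets, EGR3, ELOVL2 and GREB1 were under background in all 3 ER-negative lines, PDZK1 was close to it, and RERG and FKBP4 were well above it. EGR3, an early growth response factor, was 3.46, 3.30 and 4.06 in MFM223, CAL148 and MDAMB453, and 8.18 in T47D, 5.53 in CAMA1, 9.83 in MDAMB175VII, 10.52 in ZR751 and 10.89 in KPL1. The difference was -5.38 ± 1.14 (SE; 3 and 5 lines; limma adjusted p = 0.70). ELOVL2, an elongase of polyunsaturated fatty acids, was 3.96, 4.56 and 4.36 in the same ER-negative lines and 7.55 (KPL1) to 11.91 (CAMA1) in the ER-positive lines. GREB1, a cofactor of ER, was 5.18, 4.84 and 4.14 against 8.36, 8.12, 5.93, 11.16 and 9.93 in T47D, CAMA1, MDAMB175VII, ZR751 and KPL1. EGR3 in CAMA1 and GREB1 in MDAMB175VII were thus the ER-positive values nearest the other side. RERG, a small GTPase, reached 7.46 to 8.72 in the ER-negative lines and 9.16 to 11.77 in the ER-positive lines. PDZK1, a scaffold of membrane transporters, was separated by its lowest ER-positive line only narrowly, with 5.56 to 6.0 against 6.21 in KPL1 and 12.28 in T47D. FKBP4, a cochaperone of steroid receptors, was abundant everywhere, at 12.15 to 12.44 against 12.47 to 13.15.

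Other targets stayed high in 1 or 2 of the ER-negative lines. CCND1, cyclin D1, was 13.27 in MFM223 and 11.59 in MDAMB453, within or near the ER-positive range of 12.40 to 13.49, but 6.71 in CAL148. AGR3, a secretory pathway protein, was 12.81 in MFM223, as high as in T47D (12.51), and 4.23 and 3.02 in CAL148 and MDAMB453. It was no marker of ER here, since CAMA1 and KPL1 held 3.32 and 3.37. IGFBP5, a binding protein of insulin-like growth factors, was 12.21 in MDAMB453, above all ER-positive lines (11.27 to 12.14), but 7.90 in MFM223 and 7.67 in CAL148. CA12, a carbonic anhydrase, was 10.31 in MFM223 and 11.60 in MDAMB453 but 5.17 in CAL148, against 10.48 to 12.25. MYB was 11.12 in MFM223 and 12.06 in CAL148, under the ER-positive range of 12.28 to 12.40, and 12.48 in MDAMB453, above it. BCL2, an inhibitor of cell death, was 9.24 in MFM223 and 4.81 and 4.95 in CAL148 and MDAMB453, against 4.97 to 11.12. Targets whose ranges overlapped widely included the corepressor NRIP1 (9.63 to 11.34 against 9.73 to 11.15) and WFS1 (10.55 to 11.19 against 10.89 to 12.17).

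**Figure D2:**
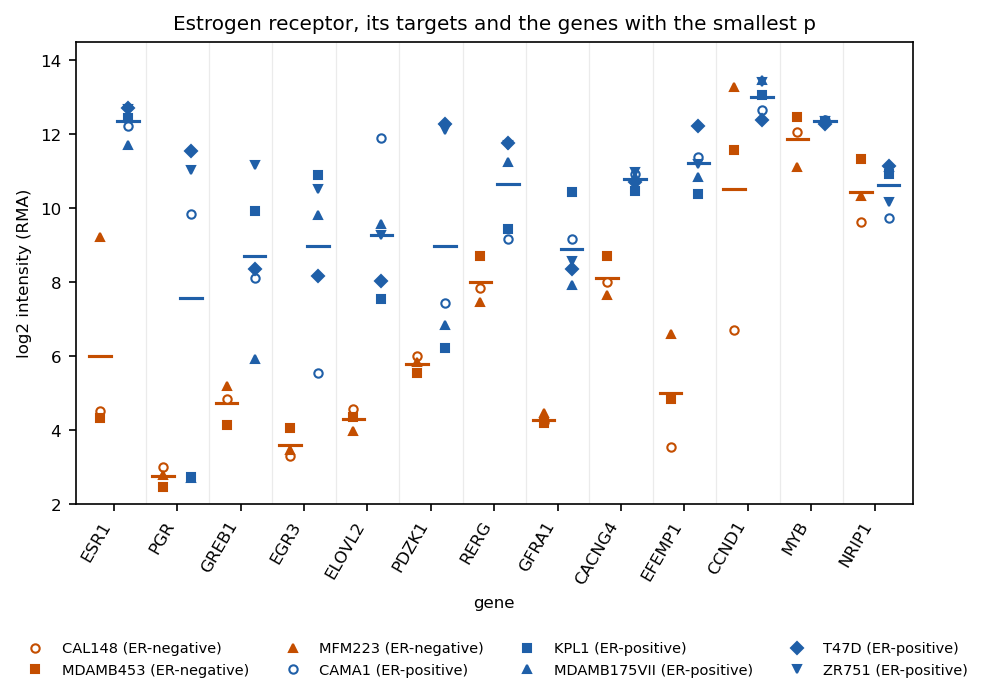
Log2 intensity (vertical axis) of ESR1, of estrogen targets and of the genes with the smallest p in each of the 3 ER-negative lines (orange) and 5 ER-positive lines (blue). Each point is 1 line, open circles are CAL148 and CAMA1, and bars are means; the sides do not overlap in ESR1 or from GREB1 to EFEMP1 but do in PGR, CCND1, MYB and NRIP1.

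CACNG4, EFEMP1 and GFRA1 came closest to a call, and CACNG4 is named after its values were seen. CACNG4, an accessory subunit of voltage-gated calcium channels, was 7.66, 7.99 and 8.71 in MFM223, CAL148 and MDAMB453, and 10.71, 10.92, 10.85, 10.99 and 10.46 in T47D, CAMA1, MDAMB175VII, ZR751 and KPL1. The ER-positive lines lay close together, and the difference was -2.66 ± 0.28 (SE; limma adjusted p = 0.072, and 0.023 to 0.27 over the alternatives). EFEMP1, fibulin-3, a matrix glycoprotein, was 6.61, 3.54 and 4.84 against 12.24, 11.39, 10.84, 11.21 and 10.40, a difference of -6.22 ± 0.68 (SE; limma adjusted p = 0.072, and 0.016 to 0.27 over the alternatives). GFRA1, which binds glial cell line-derived factor and signals through RET, was 4.46, 4.21 and 4.18, below background in each, against 8.36, 9.17, 7.91, 8.58 and 10.45, a difference of -4.61 ± 0.56 (SE; limma adjusted p = 0.11). Over the 50 other lines the median was 10.49 for EFEMP1 and 4.12 for GFRA1. ESR1 reached 12.38 among those lines, so the medians do not describe lines without ER.

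The promoter of GFRA1 and that of KYNU, a gene described further on, are shown. Both genes were among the 5 with the smallest p. They were picked because both hold the letters TGTTTAC, the core bound by forkhead factors such as FOXA1. Among the same 5 genes, SKAP2 had a window without the core, and no window was available for EFEMP1 or CACNG4. Sequences are from RefSeq on GRCh38.p14, the 250 bases before the start of transcription, 5′ to 3′ on the strand of the gene, with the core in capitals. The window of GFRA1 is chr10:116274706-116274955 on the minus strand, 1 of 4 windows listed for it and the only one with the core, and that of KYNU is chr2:142877414-142877663 on the plus strand.
GFRA1: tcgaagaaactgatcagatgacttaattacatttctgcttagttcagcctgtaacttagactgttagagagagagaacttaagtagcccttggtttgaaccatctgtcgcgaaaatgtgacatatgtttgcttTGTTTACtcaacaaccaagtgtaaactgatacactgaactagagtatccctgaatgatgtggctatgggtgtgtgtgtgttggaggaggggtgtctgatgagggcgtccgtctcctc
KYNU: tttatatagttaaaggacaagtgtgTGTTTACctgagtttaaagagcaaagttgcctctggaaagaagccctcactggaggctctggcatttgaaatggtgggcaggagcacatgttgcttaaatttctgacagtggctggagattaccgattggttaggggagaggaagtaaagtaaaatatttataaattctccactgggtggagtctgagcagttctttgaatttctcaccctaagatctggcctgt
Counted from the start, the core begins at base -117 in GFRA1 and at base -225 in KYNU. Searched on both strands, it was in 2.98% of 35116 windows of all genes, 2.23% of 14681 windows of tested genes, 3.90% of 154 windows of the genes separated below by at least 1 unit and 3.57% of 84 windows of those separated above. The full palindromic element of ER is GGTCA and TGACC around 3 bases of any kind. It was in 0.040% of all windows and 0.0068% of the windows of tested genes. It was in 0 of 43 windows of tested estrogen targets and 0 of the 154 windows, which says little for so rare an element. A match here is a run of letters, not a measured binding site.

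The luminal programme stood high on both sides. Of the 61 tested genes on lists of luminal factors and luminal epithelial genes, 0 were called, 1 was separated above (1.64%) and 2 below (3.28%), close to the 1.72% and 2.19% of all genes. Without CAL148 and CAMA1, 4 of 60 (6.67%) were separated above, among them FOXA1, and 9 (15%) below, among them CDH1, MUC1 and KRT18, against 7.60% and 8.72% of all genes. The median difference was -0.10, with 22 means higher and 39 lower in the ER-negative lines. In 53 of the 61 (86.9%) the means of both sides were above the median of the 50 other lines, against 42.5% of all tested genes. All 8 lines were chosen as luminal, so a high share was set by that choice and is a description only. A difference within 1 unit was bounded by the 95% interval in 18 of the 61 (29.5%), against 35.1% of all genes, so these genes were no more tightly matched than others, and for most of them 3 and 5 lines leave a difference of over 1 unit possible.

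FOXA1 was 13.29, 13.35 and 13.54 in MFM223, CAL148 and MDAMB453, and 13.11, 13.46, 13.27, 12.99 and 12.96 in T47D, CAMA1, MDAMB175VII, ZR751 and KPL1. The difference was 0.23, with a 95% interval of -0.07 to 0.53, and the median of the other 50 lines was 9.66. SPDEF, an ETS factor of secretory epithelium, was 10.39 to 12.40 against 11.24 to 12.15, where the other lines had a median of 5.98. XBP1, a factor of the secretory stress response, was 11.96 to 12.93 against 12.66 to 12.97. GATA3 was 12.68 in MFM223 and 12.76 in MDAMB453, inside the ER-positive range of 11.89 to 12.77, but 8.20 in CAL148. CAL148 thus combined the FOXA1 of the other lines with a GATA3 near the median of 8.32 over the 50 other lines.

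By the rule of the smallest differences, the most alike luminal genes were GRHL1 (difference 0.00), ESRRA (0.01), CLDN4 (-0.01), PROM2 (-0.02), SPINT1 (-0.02), AGR2 (0.03), MAL2 (-0.04) and FXYD3 (-0.07). GRHL1, a grainyhead factor of epithelial barriers, was 9.56 to 10.46 against 9.74 to 10.50. AGR2, a disulfide isomerase of mucus-secreting cells, was 13.01 to 13.72 against 12.20 to 13.75, where the other lines had a median of 7.10. EPCAM, an epithelial adhesion molecule, was 13.00 to 13.31 against 12.74 to 13.16, and its interval ran from -0.15 to 0.42. ESRP1, a splicing factor of epithelial cells, was 12.08 to 12.22 against 12.04 to 12.61. These small differences rest on means and not on matched lines. CLDN4, a tight junction claudin, was 10.03, 12.63 and 11.04 in the ER-negative lines, and its difference was -0.71 without CAL148, 0.59 without MFM223 and -0.78 without CAL148 and CAMA1. With array quality as a term the difference of AGR2 was -0.58, of MAL2 -0.53 and of FXYD3 -0.95, and all 8 genes took both signs over the alternatives.

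Other luminal genes parted from this, and 7 of the 25 luminal factors had means at least 1 unit apart, 3 higher and 4 lower. ELF5, an ETS factor of alveolar luminal progenitors, had the largest difference of both lists, -3.91. It was 4.61, 8.99 and 3.26 in MFM223, CAL148 and MDAMB453, and 12.72, 9.47, 11.83, 5.89 and 7.75 in T47D, CAMA1, MDAMB175VII, ZR751 and KPL1, so CAL148 and ZR751 made the ranges overlap. TOX3, a chromatin factor, was 8.38 to 10.85, and ran from 3.31 in T47D to 10.64 in CAMA1. CREB3L1, a factor of secretory stress, was 9.09 to 10.12 against 3.84 in T47D to 10.53 in MDAMB175VII. ANKRD30A, a breast differentiation antigen, was 7.78 in MFM223 and 7.73 in MDAMB453 but 2.98 in CAL148, against 2.55 to 5.96.

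ERBB3, the partner receptor of HER2, was 13.07, 13.10 and 12.87 in MFM223, CAL148 and MDAMB453, above 12.72, 12.60, 12.61, 12.46 and 12.35 in T47D, CAMA1, MDAMB175VII, ZR751 and KPL1, a difference of 0.46 ± 0.11 (SE; limma adjusted p = 0.70). INPP4B, a lipid phosphatase of the PI3K pathway, was 9.05, 7.16 and 6.84 against 9.43 to 11.29. SCUBE2, a secreted glycoprotein, was 4.48 to 4.59 against 4.80 in CAMA1 and 6.63 to 10.28 in the other ER-positive lines. For SCUBE2 the gap of 0.21 between the sides lay between values under background. MUC1, the epithelial mucin, was 6.86 in MDAMB453, 11.28 in MFM223 and 12.69 in CAL148. The ER-positive range of MUC1 was 12.08 to 13.24, so MDAMB453 and MFM223 lay under it. CDH1, E-cadherin, was 10.14 in MDAMB453, 12.77 in MFM223 and 12.36 in CAL148. It overlapped between the sides, but was separated below when CAMA1 was left out. TFF3, a secreted trefoil peptide, was 11.22 in MFM223 and 6.11 and 6.89 in CAL148 and MDAMB453, with CAMA1 at 7.33 and the other ER-positive lines at 10.45 to 12.92. TFF3 and AGR3 were thus both high in MFM223 and low in CAMA1, across the sides.

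**Figure D3:**
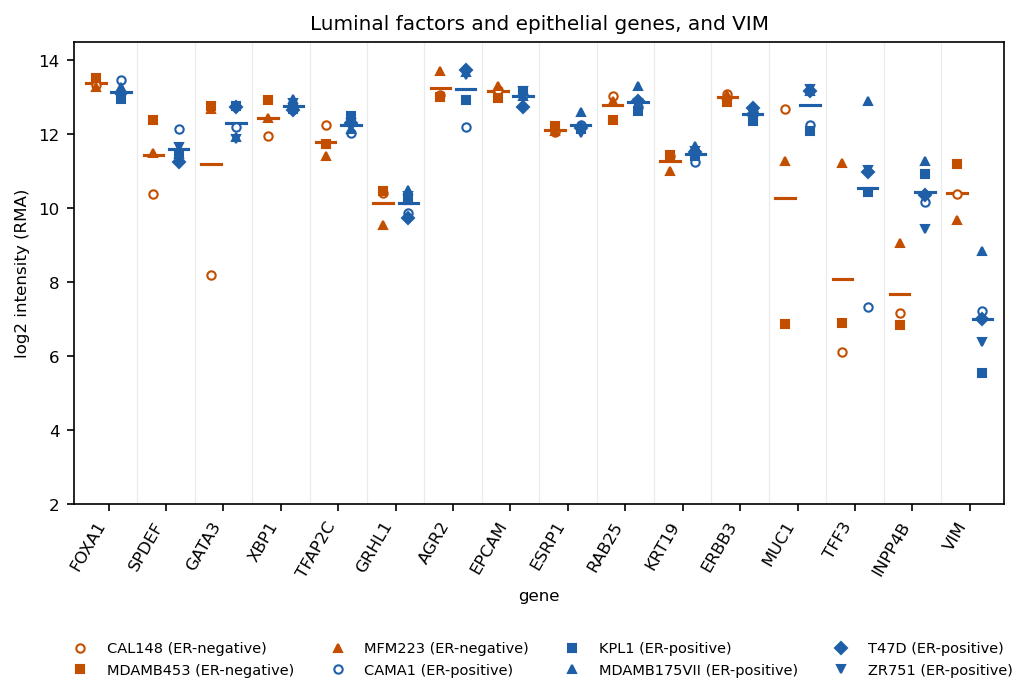
Log2 intensity (vertical axis) of luminal factors, epithelial genes and VIM in the 3 ER-negative lines (orange) and 5 ER-positive lines (blue). Each point is 1 line, open circles are CAL148 and CAMA1, and bars are means; from FOXA1 to KRT19 the sides overlap, ERBB3 and VIM are separated above and INPP4B below.

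Genes of androgen response and apocrine differentiation had medians near that of all genes. Of 25 measured androgen targets 21 were tested, 0 were called, 0 were separated above and 2 below (9.52%, against 2.19% of all genes), GREB1 and CENPN, and the median difference was 0.17 (-0.08 to 0.20 over the alternatives). Of 25 measured apocrine genes 19 were tested, 0 were called, 1 was separated above (5.26%, against 1.72%), and the median was 0.07. The separated gene was ACSM1, a mitochondrial acyl-CoA synthetase, at 5.99 to 6.35 against 5.37 to 5.99. Its gap between the sides was 0.0027, with 2 lines at background. With the mean of probe sets 0 apocrine genes were separated. Without CAL148 and CAMA1, 3 of 21 androgen targets were separated above (14.3%, against 7.60% of all genes), NDRG1, EAF2 and ADAMTS1. Also 3 were separated below (14.3%, against 8.72%), and the apocrine median was 0.41. The apocrine median changed sign with the lines, from -0.41 without MFM223 to 0.41 with array quality as a term. GREB1 is on both the estrogen and the androgen list.

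Single members were higher, though with overlap. CLCA2, a chloride channel regulator, was 11.61, 9.61 and 12.70 in MFM223, CAL148 and MDAMB453, and 3.51, 8.98, 9.71, 5.35 and 3.47 in T47D, CAMA1, MDAMB175VII, ZR751 and KPL1. The difference was 5.10 ± 1.61 (SE; limma adjusted p = 0.81), the highest of all tested genes, and MDAMB175VII lay just above CAL148. NDRG1, a gene induced by androgen and by low oxygen, was 11.10, 13.05 and 12.90 against 7.63, 11.44, 8.47, 9.59 and 8.38, where CAMA1 was the overlapping line. AZGP1, a secreted glycoprotein of apocrine glands, was 12.60 to 13.03 in the ER-negative lines and ran from 7.23 in KPL1 to 13.17 in ZR751. PIP, prolactin-induced protein, was 11.26, 8.14 and 11.88 against 3.60 in CAMA1 to 13.45 in T47D. The secretoglobin SCGB2A2, mammaglobin, was high in MFM223 at 10.31 and low in CAL148 and MDAMB453 (3.96 and 4.85), and among the ER-positive lines it ran from 3.90 to 13.64. The prostate androgen targets KLK2, KLK3 and KLK4 lay within 0.22 units between the means of the sides. STEAP4, a metalloreductase, was 3.44 to 5.34 against 3.34 in CAMA1 to 11.58 in MDAMB175VII. SCGB1D2, the partner of mammaglobin, followed SCGB2A2, at 9.74 in MFM223, 4.26 and 3.65 in CAL148 and MDAMB453, and 3.86 to 13.10 in the ER-positive lines. FKBP5, a cochaperone that androgen and glucocorticoid induce, was 11.04 to 11.54 against 8.91 to 12.59.

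Among other receptors, more nuclear receptors were separated above than below. Of 27 tested 0 were called, 3 were separated above (11.1%, against 1.72% of all genes), NR1D2, PPARD and ESRRB, and 1 below (3.70%, against 2.19%), ESR1, by which the sides were chosen, with a median of 0.18. Without CAL148 and CAMA1, 6 of 26 (23.1%) were separated above, against 7.60% of all genes. PPARD, a lipid sensor, was 8.45, 7.83 and 8.73 against 6.87 to 7.64, and NR1D2, a receptor of the circadian clock, 12.20, 11.34 and 11.31 against 10.24 to 11.12. ESRRB differed by 0.33 and was at background in 7 of the 8 lines. ESRRG, a receptor related to it that acts on energy metabolism, was 5.57, 9.0 and 6.52 against 2.49 in T47D to 7.34 in MDAMB175VII. ESR2, the second estrogen receptor, was 3.50 to 4.38 in all 8 lines, below background. The glucocorticoid receptor NR3C1 was 8.06, 8.72 and 10.83 against 7.52 to 10.28. NR2F1, an orphan receptor, was 11.77 in MDAMB453, highest of the 58 lines, and 6.04 to 7.16 in the other 7.

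Of 25 growth factor receptors tested 0 were called, with ERBB3 separated above (4.0%, against 1.72% of all genes) and GFRA1 and IGF1R below (8.0%, against 2.19%), and a median of -0.22. IGF1R, the receptor of insulin-like growth factors, was 7.70, 8.96 and 9.43 in MFM223, CAL148 and MDAMB453 and 9.49 (CAMA1) to 11.31 (T47D) in the ER-positive lines, a difference of -1.88 ± 0.53 (SE; limma adjusted p = 0.79). The next receptors were named after their values were seen. FGFR2 was 13.35 in MFM223, FGFR4 was 12.68 in MDAMB453, each the highest of the 58 lines, and CAL148 held EGFR at 10.80 and KIT at 11.43. In the ER-positive lines EGFR was 6.30 to 8.38, and KIT passed background in ZR751 (6.83) and CAMA1 (9.32), the latter the line that CAL148 resembled. TGFBR2, a receptor of transforming growth factor beta, was 9.13, 7.64 and 6.53 against 2.48 in T47D to 8.71 in KPL1. Among ligands and feedback genes of the ERBB receptors (14 tested, 0 called, 0 separated, median -0.02), TGFA was 7.79 in MFM223 and 5.14 and 4.65 in CAL148 and MDAMB453, against 6.29 to 9.22. EREG, another ligand, was 2.97 to 3.38 against 3.20 to 7.38. DUSP6, a phosphatase that dampens ERK, was 10.44 to 11.62 against 6.12 to 12.60.

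**Figure D4:**
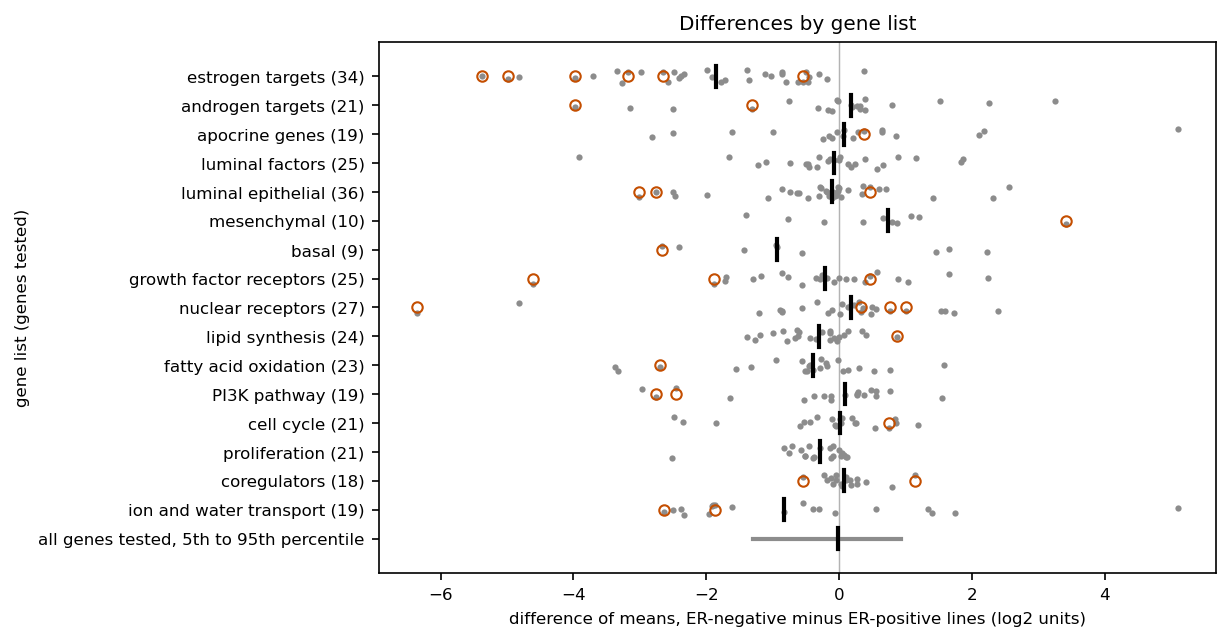
Difference of means, ER-negative minus ER-positive lines, in log2 units (horizontal axis), for the tested genes of 16 lists, with the number tested in brackets. Each grey point is 1 gene, black bars are medians, orange rings are genes whose lines do not overlap, and the lowest row gives the median and the 5th to 95th percentile over all 12340 tested genes; the bar of the estrogen targets lies at -1.85.

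Several metabolic and growth lists leaned to lower levels in the ER-negative lines, and 0 of their genes were called. Lower means were found for 18 of 24 lipid synthesis genes, 17 of 23 fatty acid oxidation genes, 16 of 21 proliferation genes and 11 of 16 steroid metabolism genes, against 51.4% of all genes. The medians, given below, were small for all but the steroid genes. Over the alternatives they ran from -0.49 to -0.10 for proliferation and from -0.42 to -0.15 for fatty acid oxidation genes. The weakest medians came without MFM223 for proliferation and lipid synthesis, and without MDAMB453 for fatty acid oxidation. SGK3, a kinase of the PI3K pathway, was 7.98, 7.30 and 6.30 in MFM223, CAL148 and MDAMB453 and 8.80 to 10.98 in the ER-positive lines, and with INPP4B it made up the 2 separated of 19 PI3K genes (10.5%, against 2.19% of all genes; median 0.09, 0 called). IRS1, an adaptor of the insulin receptors, was 3.49 in CAL148, 7.99 in MFM223 and 10.96 in MDAMB453, against 9.35 to 11.10. RB1 was 2.86 in CAL148 and 10.10 to 10.83 in the other 7 lines, and CAL148 was also the line with the low CCND1. CDKN1B, the p27 inhibitor of cyclin-dependent kinases, was 11.96, 12.02 and 11.71 against 10.23 to 11.64, the single separated of 21 cell cycle genes (4.76%, against 1.72% of all genes). CDKN2B, the p15 inhibitor, was 5.42, 7.02 and 5.89 against 6.68 to 8.67. Proliferation genes had a median of -0.28, 16 of 21 lower, 0 separated and 0 called. The largest of these differences was CCNB2, cyclin B2, which was 3.79 in MFM223 and 10.58 to 12.03 in the other 7 lines. CCNA2, cyclin A2, was 8.65 to 10.41 against 9.66 to 10.92, and BIRC5, survivin, 9.27 to 9.87 against 9.33 to 10.71.

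CPT1A, the gate of fatty acid entry into mitochondria, was 10.08, 7.22 and 7.93 against 10.50 to 11.94, the single separated of 23 fatty acid oxidation genes (4.35%, against 2.19% of all genes; median -0.39, 0 called). Without CAL148 and CAMA1 6 of the 23 (26.1%) were separated below, against 8.72% of all genes. ACOX2, a peroxisomal oxidase of bile acid precursors, was 4.87 to 6.56 in the ER-negative lines, 3.96 in CAMA1 and 9.15 to 11.41 in the other ER-positive lines. PDK4, which shuts pyruvate out of mitochondria, was 3.30 to 3.89 against 2.90 in CAMA1 to 9.79 in KPL1. Of 24 lipid synthesis genes 0 were called, and the median was -0.31 (-0.64 to -0.17 over the alternatives). Only SC5D, a sterol desaturase, was separated above (4.17%, against 1.72% of all genes), by 0.88 with a gap of 0.0008 between the sides. The desaturases FADS1 (8.13 to 9.88 against 9.13 to 10.90) and FADS2 (5.47 to 7.98 against 6.55 to 9.33) and MVD of the mevalonate pathway (7.28 to 8.99 against 8.65 to 10.13) had lower means with overlap.

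The 16 steroid metabolism genes had a median of -0.67 (-0.95 to 0.07 over the alternatives), 0 called and 0 separated. SULT2B1, a sulfotransferase of sterols, was 6.37 and 6.29 in MFM223 and CAL148 and 9.32 in MDAMB453, against 9.07 to 10.60. HSD17B11, a dehydrogenase, was 3.23 to 5.43 against 4.69 to 9.22, and CYP1B1, which hydroxylates estrogens, 6.62 to 10.85 against 8.60 to 12.19. Of 12 secretory genes tested 0 were called and 0 separated, with a median of -1.34 (-2.44 to -0.17 over the alternatives). SERPINA3, a protease inhibitor, was 3.92 to 6.12 against 5.02 to 12.03. Interferon genes (16 tested, median -0.18) and antigen presentation genes (13 tested, median -0.37) had 0 called and 0 separated. BST2, tetherin, was 6.65, 4.40 and 11.22 against 9.78 to 11.90, HERC5 5.45 to 7.66 against 3.49 to 6.77, and IFI6 9.16 to 9.44 against 8.45 to 11.20. HLA-E was 7.45 to 8.63 against 8.59 to 9.29, HLA-F 3.39 to 6.41 against 5.53 to 8.45, and CD74, the invariant chain, 5.43 to 6.62 against 5.67 to 9.58.

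BID, a proapoptotic member of the BCL2 family, was 8.44, 9.27 and 8.99 against 9.76 to 11.17, the single separated of 13 genes of that family (7.69%, against 2.19%). BOK, another member, was 3.82 in MFM223 and 7.08 to 9.74 in the other 7 lines. Among 19 ion and water transport genes 0 were called, the median was -0.83, and the potassium channels KCNK6 (6.44 to 7.18 against 8.0 to 10.47) and KCNK15 (5.05 to 5.24 against 5.34 to 8.74) were separated below (10.5%, against 2.19% of all genes). For KCNK15 the gap of 0.11 lay between values under background. AQP3, a channel of water and glycerol, was 6.19, 5.78 and 9.65 against 6.72 to 12.38. Of 18 coregulators of nuclear receptors 0 were called, NCOA7 was separated above and FKBP4 below (5.56% each, against 1.72% and 2.19% of all genes). An interval within 1 unit was found for 12 (66.7%, against 35.1% of all genes). HSP90AA1, a chaperone of steroid receptors, differed by -0.04 ± 0.09 (SE). FKBP8, another immunophilin, was 12.0 in MFM223 and 9.56 to 10.48 in the other 7 lines.

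The largest separated differences, named by size although none passed the adjusted p, ran mostly downward. SKAP2, an adaptor of Src kinases, was 3.73, 3.38 and 5.84 in MFM223, CAL148 and MDAMB453, and 12.40, 8.18, 10.63, 11.48 and 11.48 in T47D, CAMA1, MDAMB175VII, ZR751 and KPL1. With a median of 11.57 over the 50 other lines, SKAP2 was low in the ER-negative lines rather than high in the ER-positive lines. KYNU, kynureninase of tryptophan breakdown, was 6.80, 3.78 and 4.35 against 9.17 to 11.80, a difference of -5.48 ± 0.79 (SE; limma adjusted p = 0.28). TMPRSS3, a membrane serine protease, was 6.53, 3.04 and 2.62 against 7.55 to 10.75. MYEOV was 4.32, 3.17 and 3.80 against 7.10 to 10.99.

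The upward differences among separated genes were smaller, up to 3.42. VIM, vimentin, an intermediate filament of mesenchymal cells, was 9.69, 10.39 and 11.20 in MFM223, CAL148 and MDAMB453 and 7.01, 7.23, 8.86, 6.39 and 5.55 in T47D, CAMA1, MDAMB175VII, ZR751 and KPL1. The difference was 3.42 ± 0.71 (SE; limma adjusted p = 0.69), and all 8 lines stayed under the median of 12.47 over the 50 others. ANXA2R, a receptor of annexin A2, was 10.39, 9.17 and 9.15 against 5.73 to 7.60, and ODF2L, a centrosomal protein, 9.98, 8.58 and 9.23 against 5.52 to 7.82. PRKAA2, a catalytic subunit of the energy sensor AMPK, was 10.32, 8.31 and 7.95 against 5.20 to 7.67. FGF13, an intracellular fibroblast growth factor, was 10.97 to 11.63, barely above CAMA1 at 10.91, with T47D at 4.55. ABCA17P, a pseudogene, and BTN3A3, a butyrophilin, have close copies that could share signal, so their differences of 2.99 and 2.28 are uncertain, and NAP1L5, a nucleosome assembly protein, differed by 2.40 with a gap of 0.03 between the sides. HK2, a hexokinase that commits glucose to glycolysis, was picked after its values were seen. It stood at 12.32, 12.67 and 12.61 against 9.53, 11.27, 11.40, 10.92 and 11.68, and the highest of the 58 lines was on the ER-negative side.

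**Figure D5:**
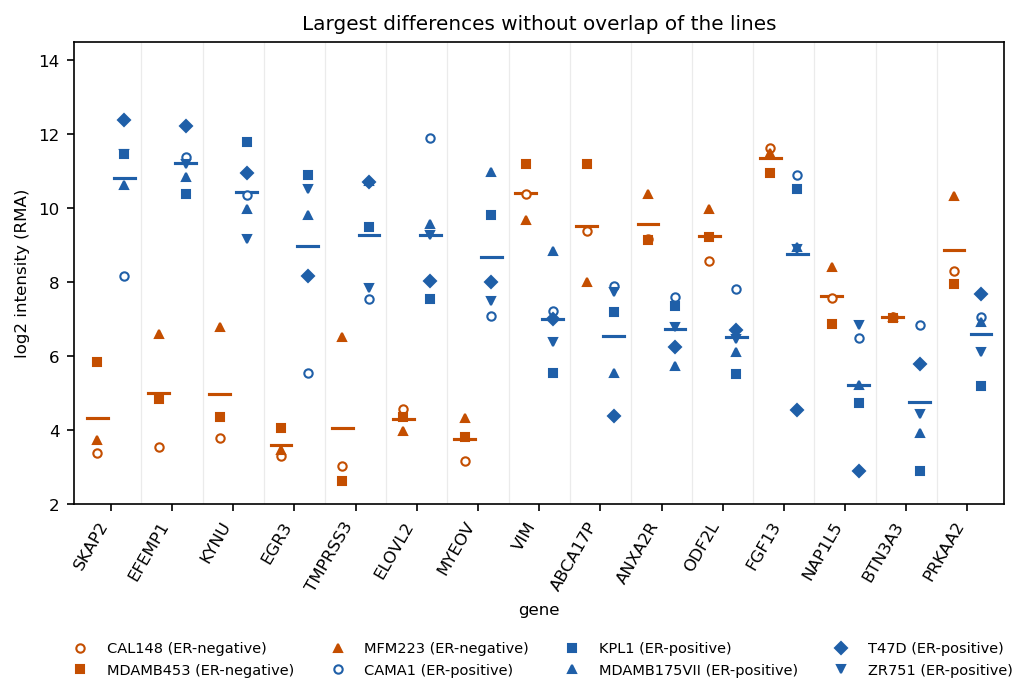
Log2 intensity (vertical axis) of the genes with the largest differences among those whose lines do not overlap, 7 lower (left) and 8 higher (right) in the 3 ER-negative lines (orange) than in the 5 ER-positive lines (blue). Each point is 1 line, open circles are CAL148 and CAMA1, and bars are means; ESR1, which defined the sides, is left out, and FGF13 and NAP1L5 show the narrowest gaps.

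Other mesenchymal genes were mixed. Of 21 measured, 10 were tested, 7 of the 10 had higher means in the ER-negative lines, 0 were called and VIM was the single one separated above (10.0%, against 1.72% of all genes). ZEB1, a defining factor of that state, was 2.36 to 5.15 in the ER-negative lines and 2.17 to 3.34 in the ER-positive lines, all below background. MDAMB453 stood out within the list, with collagen genes COL1A2 at 10.30 and COL1A1 at 11.23 and the matrix gene POSTN at 8.72, whereas COL1A2 was 4.14 to 5.90 and POSTN 2.41 to 2.96 in the other 7 lines. SPARC, a matrix protein, was 7.81 in MDAMB453 and 7.67 in MFM223, and 2.43 to 3.82 in the other 6 lines. Of 15 basal genes measured 9 were tested, 0 were called and 1, VGLL1, was separated below (11.1%, against 2.19% of all genes). Its gap of 0.0016 lay between values under background. TRIM29 was 8.26, 6.03 and 6.62 against 3.58 to 6.13, and CDH3, P-cadherin, 4.34 in MFM223 and 8.21 to 10.75 in the other 7 lines. The medians of both lists changed sign with array quality as a term, from 0.73 to -0.69 for the mesenchymal and from -0.94 to 1.12 for the basal genes, which stood at -2.22 without CAL148 and CAMA1, with 6 of 8 separated below and 1 above. LOX, an oxidase that crosslinks collagen, was 10.01 in CAL148, 6.18 in MDAMB453 and 3.28 in MFM223, against 2.90 to 4.70. The basal keratin KRT5 was at background in all 8 lines. Lists of blood, endothelial, fat, melanocyte, neuroendocrine, intestinal and liver genes held 52 measured genes, of which 8 passed the filter, 0 were called and 0 were separated. Single lines stood out within these lists, as LPL, lipoprotein lipase, at 10.98 in MFM223 and 8.47 in MDAMB175VII, and 3.76 to 4.51 in the other 6 lines. The pigment gene TYRP1 was 10.57 in T47D and 6.60 in CAMA1, RAB38 8.35 in T47D, and MITF 6.85 to 9.89 over all 8 lines. The neuroendocrine factor INSM1 was 8.44 in T47D and 7.88 in CAMA1, SYP was 8.89 in MDAMB175VII, and SCG2 at most 5.02. SERPINA1, a plasma protease inhibitor, was 12.92 in T47D and 11.34 in ZR751, FGB at most 6.47, and TF 6.64 in MFM223. VIL1 was 6.60 and LAPTM5 7.60 in MFM223, KDR 6.69 in CAL148, CDH5 5.92 in MDAMB175VII, and MUC2 and CDX1 were under background in all 8 lines.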

How the data were processed

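Total RNA of 58 untreated breast lines was amplified with NuGEN chemistry and hybridised, 1 array per line, per the labels' protocols. The values that the authors deposited are log2 intensities; RMA and Affymetrix Power Tools are named in the submitters' processing notes, and their versions are not given in the sources used here. Of 52377 probe sets, 35184 named 1 gene, 374 several and 16819 none. Each of the 19798 genes was read from its probe set with the highest mean over the 58 arrays. Genes above the array median in at least 3 of the 8 lines were tested, 12340 in all.

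The 3 and 5 lines were compared with limma 3.58.1 in R 4.3.3 (moderated test with trend and robust variance, 6 residual degrees of freedom), adjusted by Benjamini-Hochberg over all tested genes; the fit was tested on simulated data. Arrays give no count of molecules, so the number of lines limits the precision. Lines were grouped by their titles and known subtype. 1 gene of the label check is not reported here. The comparison, its members and the gene lists were chosen with earlier results of these data known. By rule, the text names the genes of the label check, the 8 largest separated differences in each direction (since fewer passed the adjusted p), the 3 largest differences within each list, and the 8 luminal genes with the smallest differences; all other genes, those with the smallest p included, were named after their values were seen. The count of separated genes and the fit without CAL148 and CAMA1 were added after seeing the data. Other alternatives were the mean of probe sets, further quantile normalization, other filters, a plain eBayes fit, array weights, array quality as a term and leaving out each line. Leaving out cross-hybridising probe sets was not run, since 0 of the probe sets carried such a suffix. Promoter windows came from RefSeq and were searched on both strands. Tables were handled in Python 3.11.15 with pandas 2.3.3 and drawn with matplotlib 3.10.9.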

Additional observations from a re-analysis of the deposited data

Results flagged for a closer look

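Among the 105 named genes, 8 had 1 ER-positive line that stood apart from the other ER-positive lines by Dixon's criterion, where chance flags about 1 in 20 groups; the 3 ER-negative lines are too few for it. MDAMB175VII was the line in 6 of the 8. It was highest in the fat genes FABP4, a fatty acid carrier (11.13, next 4.81), LPL, lipoprotein lipase (8.47, next 4.51) and ADIPOQ, adiponectin (4.75, next 2.92), the last below background. It was also highest in PECAM1, an endothelial adhesion molecule (8.03, next 5.17), and in CLDN4, a tight junction claudin (12.22, next 11.14), and lowest in BIRC5, survivin of dividing cells (9.33, next 10.37). ZR751 was highest in IKZF1, a lymphoid factor (6.97, next 3.79). KPL1 was highest in HCLS1, a haematopoietic adaptor (3.30, next 2.84), both values below background.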

How the results depend on the processing

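No alternative called a gene higher in the ER-negative lines, and the unadjusted count ran from 537 to 1104 genes, the highest with array quality as a term. Genes called higher in the ER-positive lines numbered 2 with the mean of probe sets and 2 with array weights, CACNG4 and EFEMP1 both times, and 0 to 7 when 1 line was left out. These were 2 without MFM223, EFEMP1 and ESR1, the latter no independent call since ER status chose the sides, and 7 without MDAMB453, CACNG4, EHD2, IGFBP5, LGALS1, PXMP4, SDC2 and STC1. Genes separated above numbered 350 with no filter, 912 without CAL148 and CAMA1, and 272 to 658 when 1 line was left out. Genes separated below numbered 1046 without CAL148 and CAMA1 and 344 to 863 when 1 line was left out; fewer lines overlap less by construction.

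Of 85 named genes tested, 13 took both signs over the alternatives. In 8 of these, AGR2, CLDN4, ESRRA, FXYD3, GRHL1, MAL2, PROM2 and SPINT1, chosen for their small differences, the main difference was within 0.1 of 0. The other 5 follow. BCL2 was 1.08 with array quality as a term, 0.16 without CAL148 and CAMA1, and -2.32 to 0.12 when 1 line was left out, the highest without ZR751. BOK was -2.71 to 0.17 when 1 line was left out, the highest without MFM223, and DUSP6 was -1.002 with array quality as a term. ERBB2 was -0.46 without MDAMB453, -0.0086 without KPL1 and up to 0.89 when another line was left out. RB1, low in CAL148 alone, was 0.25 without CAL148 and CAMA1, and -3.77 to 0.21 when 1 line was left out, the highest without CAL148. For the others the cause was not tested. The median of the luminal factors was 0.28 without MFM223 and -0.42 without MDAMB453. No paired analysis was possible because the sides hold different lines, each measured on 1 array.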
